A study of Mus musculus with 7 samples.

Results

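The genes described here encode the enzymes that make leukotrienes and prostaglandins from arachidonic acid, with the helper protein of the first leukotriene step. They were chosen by name and not by a cut on any measured value, though with earlier results of these data known. They are Pla2g4a, Alox5, Alox5ap, Lta4h, Ltc4s, Alox15, Ptgs1 and Ptgs2, 8 of the 21631 protein-coding genes on chromosomes 1 to 19 and X. For each gene the chromatin states were read over its RefSeq span and 20 kb on either side, a window of 42.2 kb at Ltc4s to 171.8 kb at Pla2g4a. Together the windows covered 657.2 kb. The cells were mouse bone marrow cells of BALB/c background carrying retrovirally expressed mutant CSF3R and mutant CEBPA, which the labels call leukaemia cells, grown in culture. One group received 4 nM GSK-LSD1, an inhibitor of the histone demethylase LSD1, for 48 h, and the other received the solvent DMSO for the same time, so both groups carry both mutant genes. Each group had 3 immunoprecipitated libraries, 1 each for H3K4me1, H3K4me3 and H3K27Ac, and 1 input library was labelled with no treatment.

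Cytosolic phospholipase A2, encoded by Pla2g4a, cuts arachidonic acid from membranes. In the leukotriene branch, 5-lipoxygenase (Alox5) works with the membrane protein FLAP (Alox5ap) to give an unstable epoxide. Lta4h turns this epoxide into the neutrophil attractant leukotriene B4, and Ltc4s joins it to glutathione as the first of the cysteinyl leukotrienes. In the prostaglandin branch the cyclooxygenases COX-1 (Ptgs1) and COX-2 (Ptgs2) commit arachidonic acid to prostaglandins and thromboxane. Myeloid cells are known as a main source of leukotrienes.

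The authors deposited 1 segmentation per treatment, in which each 200 bp bin holds a state from E1 to E6, so there is no replicate, no test and no p-value for any difference between treatments. Read counts are not part of these segmentations, and library depth is therefore unknown. The marks behind each state number are not stated either, and the states are described by their place relative to the starts of 17274 genes. E5 lay at starts 16.9 times more often than its genome share in GSK-LSD1 and 25.2 times in DMSO, and E6 did so 14.5 and 19.5 times. E5 and E6 are therefore read together as start-type chromatin. E3, here called background, covered 70.1% of the genome in GSK-LSD1 and 73.3% in DMSO, and the broad state E2 covered 19.3% and 21.3%. E4 lay at starts 1.82 and 2.17 times its genome share, and E1 0.368 and 0.503 times. E6 covered 2.08% of the genome in GSK-LSD1 and 0.217% in DMSO, and E1 covered 4.72% and 0.483%. A state number may not stand for exactly the same marks in both segmentations. Start-type chromatin lay within 1 kb of a start at 10 of 10 myeloid progenitor and granulocyte markers in GSK-LSD1 and at 5 of 10 in DMSO, where Mpo, Elane, Ctsg, Itgam and Csf3r lacked it. It did so at 3 and 2 of 5 macrophage markers, 4 and 3 of 8 mast cell, basophil and eosinophil markers, 5 and 5 of 5 erythroid and platelet markers, 1 and 1 of 4 B cell markers and 1 and 0 of 3 T cell markers. Stromal and endothelial markers had it at 2 and 3 of 4, and epithelial and liver markers at 1 and 2 of 3. Of all 17274 starts, by the narrower measure of the start bin alone, 25.8% were E5 and 30.2% E6 in GSK-LSD1. In DMSO 49.9% were E5 and 4.23% E6. The part of these markers in the results below was not tested. In bulk chromatin, more cells with a mark and more mark per cell cannot be told apart.

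Every one of the 8 genes had more start-type chromatin in its window in GSK-LSD1 than in DMSO, but so did 66.8% of all protein-coding genes. The difference reached 2 kb, the size taken as a change, at 5 of the 8 genes, against 44.9% of all genes. The 5 were Alox15, Pla2g4a, Ltc4s, Alox5ap and Lta4h. Among the 15317 genes that had any start-type chromatin in their window in DMSO, as all 8 did, the shares were 91.4% and 62.7%, so both counts were close to the background. The median difference of the 8 genes was 6.4 kb, beside 1.4 kb over all genes and 2.8 kb over those 15317. Summed over the windows, E5 and E6 together covered 90.8 kb in GSK-LSD1 and 46.0 kb in DMSO. As a share of the windows this was 13.8% in GSK-LSD1 (95% Wilson interval 12.7 to 15.0) and 7.0% in DMSO (6.18 to 7.92). Intervals here cover the counting of bins only, and neighbouring bins are not independent. The direction rests on E6: E5 alone covered 18.8 kb in GSK-LSD1 and 42.4 kb in DMSO, and E6 alone covered 72.0 kb and 3.6 kb. E5 was larger in GSK-LSD1 at 3 of the 8 genes (28.6% of all genes) and smaller at 5 (40.9%). E4 was larger at 3 (34.1%) and smaller at 5 (42.1%), E2 larger at 2 (22.2%) and smaller at 6 (55.4%), and E3 larger at 2 (21.4%) and smaller at 4 (30.7%).

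Among the 8 genes, E6 and E1 lay mainly at the phospholipase, leukotriene and lipoxygenase genes. The wider pathway list described below did not show this division for E1. E6 was present in GSK-LSD1 in the windows of Pla2g4a, Alox5, Alox5ap, Lta4h, Ltc4s and Alox15, and in neither treatment at Ptgs1 or Ptgs2. It was larger in GSK-LSD1 at those 6 genes, by at least 2 kb at each. Over all genes E6 was larger at 55.2% and by at least 2 kb at 43.5%. Over genes with start-type chromatin in DMSO, as all 8 had, the shares were 76.6% and 61.1%. The count of 6 of 8 with more E6 was thus close to that background. E1 was larger at 7 of the 8 genes, by at least 2 kb at each, against 49.1% of all genes for any size and 41.4% for 2 kb. Among genes with start-type chromatin in DMSO these shares were 65.8% and 55.9%. With flanks of 10 kb the count at 2 kb was 5, since the E1 difference was then 0.8 kb at Lta4h and 1.8 kb at Ltc4s. In the gene body alone 4 genes had more E1. No share of all genes is given for these 2 settings. E1 was absent from the Ptgs1 window in both treatments. The median difference in E1 was 9.9 kb for the 8 genes, 0 kb for all genes and 3.0 kb for genes with start-type chromatin in DMSO. Whether the branches differ beyond what any genes would show was not tested.

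**Figure D1:**
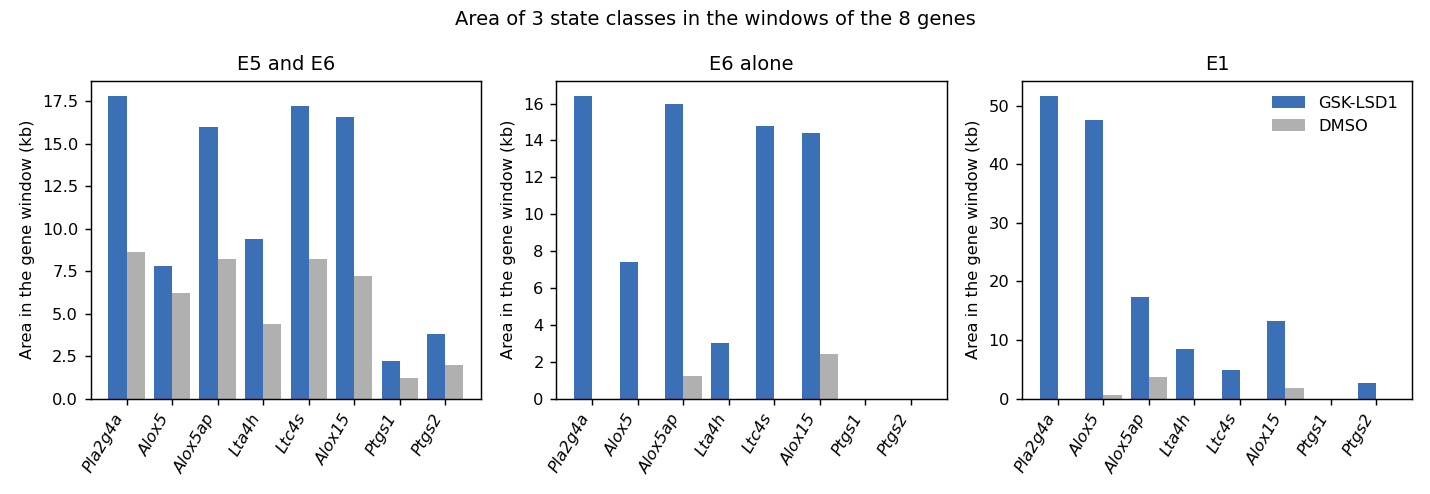
Area (kb) of E5 and E6 together, of E6 alone and of E1 in the window of each gene, with GSK-LSD1 bars left of DMSO bars. E6 is drawn for 6 genes in GSK-LSD1 and is at 0 kb for Ptgs1 and Ptgs2, and the tallest E1 bars are Pla2g4a at 51.6 kb and Alox5 at 47.6 kb.

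Pla2g4a, the gene of the phospholipase that releases arachidonic acid, spans chromosome 1, 149829618 to 149961290 (GRCm38, minus strand). It had the largest E1 area of the 8 genes, 51.6 kb in GSK-LSD1 against 0 kb in DMSO, and 47.8 kb of this lay inside the gene. The difference was larger than that of 98.6% of all genes, and as a share of the window (30.0 points) larger than that of 94.2%. E1 lay in 8 blocks, the longest of 16.8 kb from 27.5 to 44.3 kb past the start. E5 and E6 together covered 17.8 kb in GSK-LSD1 and 8.6 kb in DMSO. The start itself lay in a 7.4 kb run in GSK-LSD1 and a 3.8 kb run in DMSO, both ending 0.91 kb upstream of the start, so the added length was wholly inside the gene. Farther in, runs of 3.8 and 6.6 kb in GSK-LSD1 began 11.7 and 18.7 kb past the start, over shorter DMSO runs of 0.2, 2.0 and 2.6 kb. A second annotated start, at 149922439, was E1 in GSK-LSD1 and E2 in DMSO. E4 was at 0 kb in the window in GSK-LSD1, against 16.4 kb in DMSO. No other protein-coding gene lay in this window.

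Alox5, which encodes 5-lipoxygenase, spans chromosome 6, 116410071 to 116461178 (minus strand). Its start-type area was nearly alike in the treatments, 7.8 kb in GSK-LSD1 and 6.2 kb in DMSO, a difference of 1.6 kb. The number of the state was not: all 6.2 kb that was E5 in DMSO was E6 in GSK-LSD1. E1 filled 52.2% of the window in GSK-LSD1 and 0.658% in DMSO. This difference of 51.5 points was larger than in 99.3% of all genes, and larger than in 99.0% of the genes with start-type chromatin in DMSO. In kb it was 47.6 in GSK-LSD1 and 0.6 in DMSO. A single block of 30.8 kb, from 116414001 to 116444800, lay inside the gene, and the only E1 of the window in DMSO was 0.6 kb within that stretch. Most of the E1 was broad chromatin in DMSO, since E1 in GSK-LSD1 covered 41.0 of the 61.8 kb that was E2 in DMSO. A 6.4 kb block reached past the 3′ end of the gene into the ubiquitin ligase gene Marchf8, and with bins in or near other genes left out the E1 difference was 40.6 kb. The lncRNA Gm38880 lies on the other strand inside Alox5, and chromatin states do not tell strands apart.

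Alox5ap encodes FLAP, which presents arachidonic acid to 5-lipoxygenase. The gene spans chromosome 5, 149265004 to 149288153, and its strand is not in the tables used, so both ends were read. The lower-coordinate end lay in E6 in GSK-LSD1 and in E5 in DMSO, within runs of start-type chromatin of 7.0 and 3.4 kb. The other end lay in E2 in GSK-LSD1 and E3 in DMSO. Start-type area was 16.0 kb in GSK-LSD1, all of it E6, against 8.2 kb in DMSO, of which 1.2 kb was E6. A second run, 6.4 to 12.4 kb inside the lower-coordinate end, measured 6.0 kb in GSK-LSD1, over DMSO runs of 1.4 and 0.8 kb. E1 covered 17.4 kb in GSK-LSD1 and 3.6 kb in DMSO. Its place differed: one block of 15.8 kb lay outside the gene in GSK-LSD1, filling the interval between the run at the gene end and another start-type run at the edge of the window. Inside the gene E1 covered 1.6 kb in GSK-LSD1 and 3.6 kb in DMSO, the opposite direction, and 3.0 kb of the DMSO E1 was E6 in GSK-LSD1. No other protein-coding gene lay in this window.

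**Figure D2:**
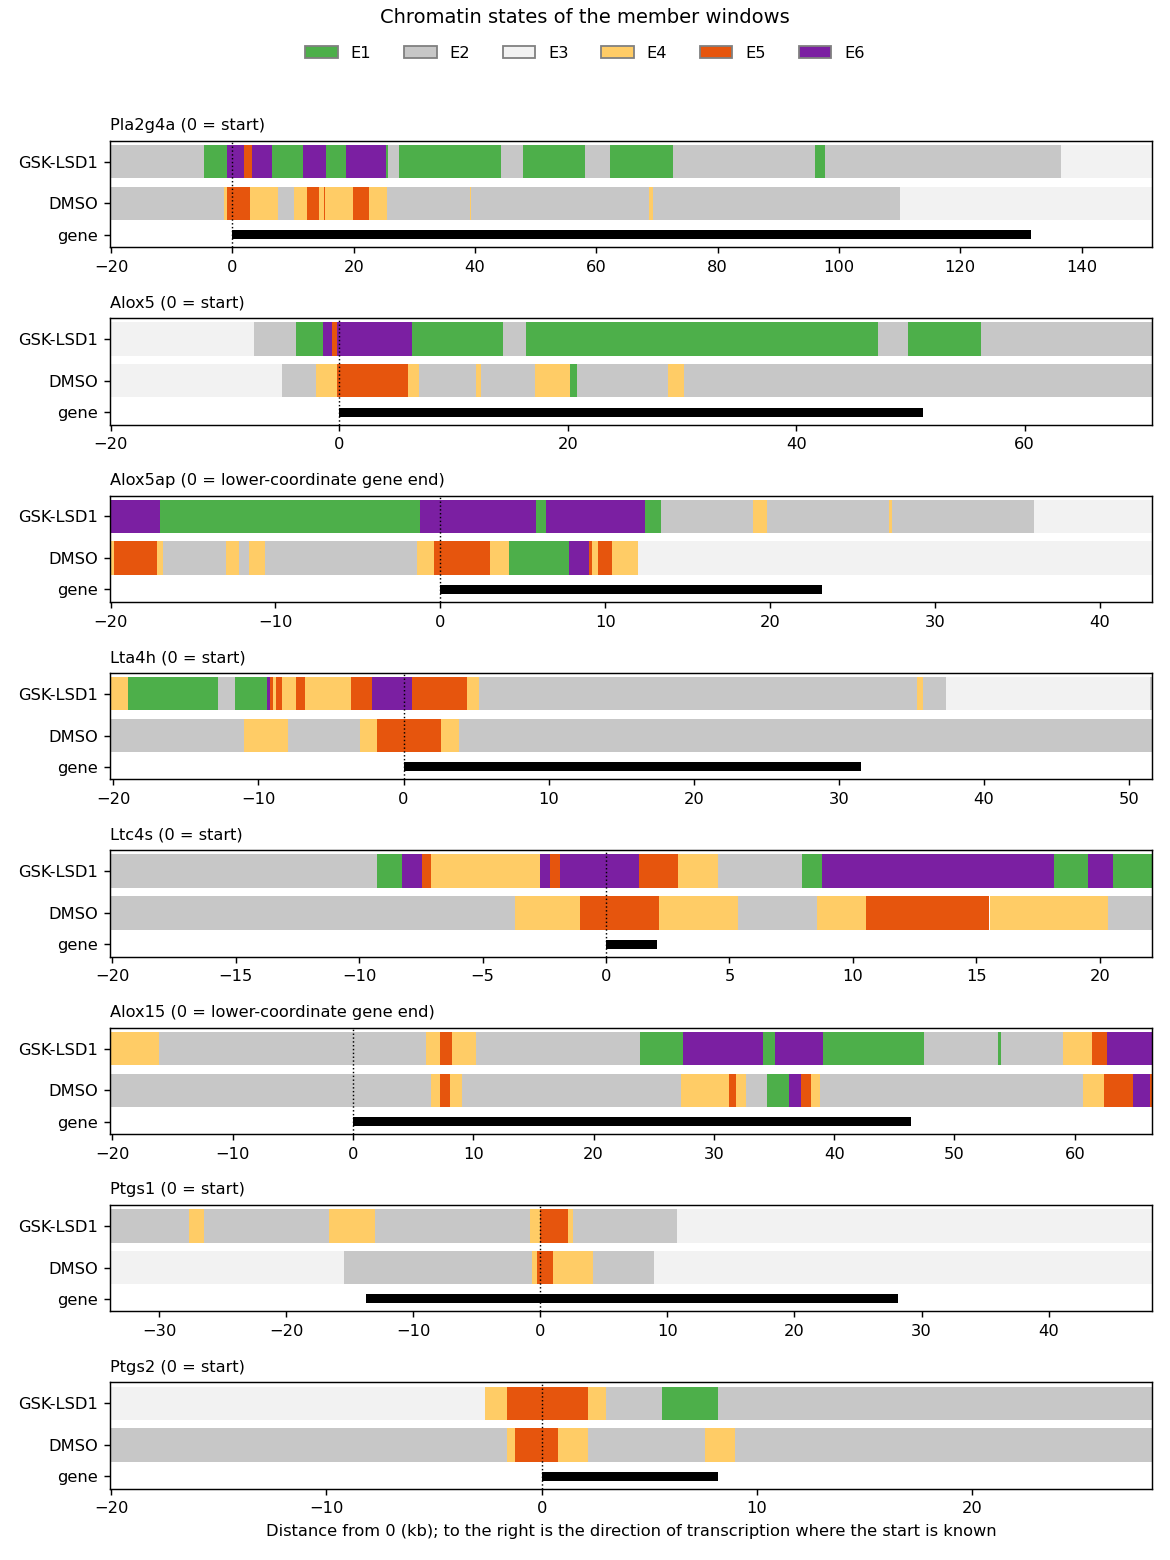
States E1 to E6 along the window of each gene, GSK-LSD1 above DMSO, with the gene span as a black bar and distance in kb from the start (for Alox5ap and Alox15, from the lower-coordinate gene end). In GSK-LSD1 the E1 blocks of Pla2g4a and Alox5 fill much of the gene body, and the starts of Ptgs1 and Ptgs2 stay in E5 in both treatments.

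Lta4h encodes the hydrolase that makes leukotriene B4 and spans chromosome 10, 93453396 to 93484896 (plus strand). Start-type area was 9.4 kb in GSK-LSD1 and 4.4 kb in DMSO. The run over the start was 8.0 kb in GSK-LSD1 and 4.4 kb in DMSO and was longer on both sides of the start, with E6 in the middle and E5 at its edges in GSK-LSD1. Only 2.4 of the 4.4 kb that was E5 in DMSO was E6 in GSK-LSD1. E1 covered 8.4 kb in GSK-LSD1 and 0 kb in DMSO, all of it upstream of the gene, from 9.4 to 19 kb before the start. Past the 3′ end, E3 covered 14.0 kb of the window in GSK-LSD1 and 0 kb in DMSO, over the neighbouring gene Hal, histidine ammonia-lyase. The gene body alone gave a start-type difference of 1.8 kb, which is under 2 kb.

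Ltc4s encodes leukotriene C4 synthase and spans only chromosome 11, 50236461 to 50238532 (minus strand). The whole gene lay in start-type chromatin in both treatments, in a run of 5.6 kb in GSK-LSD1 and 3.2 kb in DMSO, with E6 at the start in GSK-LSD1 and E5 in DMSO. Over the window the area was 17.2 kb in GSK-LSD1 and 8.2 kb in DMSO. More than 50% of the GSK-LSD1 area was a run of 9.4 kb that reached into the neighbouring gene Mgat4b, a glycosyltransferase gene, where DMSO had 5.0 kb. A new run of 1.2 kb lay 7.1 to 8.3 kb upstream of the start. E1 covered 4.8 kb in GSK-LSD1 and 0 kb in DMSO, all outside the gene. Within the gene body the start-type difference was 0 kb.

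Alox15 encodes the mouse 12/15-lipoxygenase and is annotated over chromosome 11, 70344147 to 70390538, a span that takes in a predicted transcript. Its start and strand were not given, so both ends of the span were read, and which run lies at its start is not known here. Neither end of this span lay in start-type chromatin: the lower-coordinate end was E2 in both treatments, and the other was E1 in GSK-LSD1 and E2 in DMSO. An E5 run of 1.0 kb in GSK-LSD1 and 0.8 kb in DMSO lay inside the span, at 70351401 to 70352400 in GSK-LSD1. The start-type area of the window was 16.6 kb in GSK-LSD1 and 7.2 kb in DMSO. Most of the difference came from a pair of runs inside the span, of 6.6 kb (70371601 to 70378200) and 4.0 kb (70379201 to 70383200) in GSK-LSD1, over DMSO runs of 0.6 and 1.8 kb. E1 flanked these runs and covered 13.2 kb in GSK-LSD1 and 1.8 kb in DMSO. A further run at the window's edge, of 5.0 kb in GSK-LSD1 and 4.0 kb in DMSO, lay over one end of Pelp1, a nuclear receptor coregulator gene.

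Ptgs1, the gene of the largely constitutive cyclooxygenase COX-1, spans chromosome 2, 36216742 to 36258593 (plus strand), with the start used here at 36230426. It had the least start-type chromatin of the 8 genes, 2.2 kb in GSK-LSD1 and 1.2 kb in DMSO. This was a single E5 run over the start in both treatments. E1 and E6 were at 0 kb in both. The largest differences at Ptgs1 lay in E2 and E3: E2 covered 36.4 kb in GSK-LSD1 and 19.6 kb in DMSO, and background E3 covered 37.4 and 57.6 kb. E4 covered 6.0 kb in GSK-LSD1 and 3.6 kb in DMSO, a difference of 2.4 kb. The lower-coordinate end of the span, upstream of the start used, lay in a 3.6 kb E4 block in GSK-LSD1 and in E2 in DMSO.

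Ptgs2, the gene of the inducible cyclooxygenase COX-2, spans chromosome 1, 150100031 to 150108234 (plus strand). Its start-type area was 3.8 kb in GSK-LSD1 and 2.0 kb in DMSO, again a single E5 run over the start and with no E6 in either treatment. All 2.0 kb that was E5 in DMSO was also E5 in GSK-LSD1. A block of 2.6 kb of E1 at the 3′ end of the gene was present in GSK-LSD1, against 0 kb in DMSO. Upstream, 17.4 kb of the window was background E3 in GSK-LSD1 and E2 in DMSO. This stretch lies over the lncRNA Ptgs2os on the other strand. Ptgs2 and Pla2g4a are neighbours on chromosome 1 with 138.7 kb between them, and in that interval E1 covered 3.8 kb in GSK-LSD1 and 0 kb in DMSO, while E5 covered 1.8 and 2.4 kb and E6 covered 1.0 and 0 kb.

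None of the 6 genes with an annotated start gained or lost start-type chromatin at the start bin, since all 6 had E5 there in DMSO. Over all 17274 starts, 2.84% had E5 or E6 in GSK-LSD1 alone and 0.868% in DMSO alone, and 53.2% in both. What differed was the state number. E6 lay at the starts of Pla2g4a, Alox5, Lta4h and Ltc4s in GSK-LSD1, and E5 lay at those of Ptgs1 and Ptgs2. The 8613 starts with E5 in DMSO divided nearly evenly in GSK-LSD1, with 50.3% in E6 and 47.9% in E5, so 4 of 6 is near the background. The run over the start was longer in GSK-LSD1 at all 6 genes, as it was at 89.3% of the 9194 starts with a run in both treatments.

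Across all starts that were E5 in DMSO, the state in GSK-LSD1 went with the length of the run in DMSO. Of starts whose DMSO run was over 1 and up to 2 kb, 14.8% (95% Wilson interval 13.0 to 16.9; 1277 starts) were E6 in GSK-LSD1. The share was 55.1% (52.9 to 57.3; 1962 starts) for runs over 3 and up to 4 kb, and 87.2% (84.7 to 89.3; 833 starts) for runs over 6 kb. Ptgs1 and Ptgs2 had DMSO runs of 1.2 and 2.0 kb and fall in the group where 82.2% of starts were E5 in GSK-LSD1. Alox5 had 6.2 kb, Lta4h 4.4 kb, Pla2g4a 3.8 kb and Ltc4s 3.2 kb. The last 2 fall in the group where 55.1% of starts were E6 and 44.7% E5, so either state was common there. Whether run length accounts for the difference between these genes was not tested. Genes share libraries here and are not replicates, and this grouping was made after the data had been seen.

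**Figure D3:**
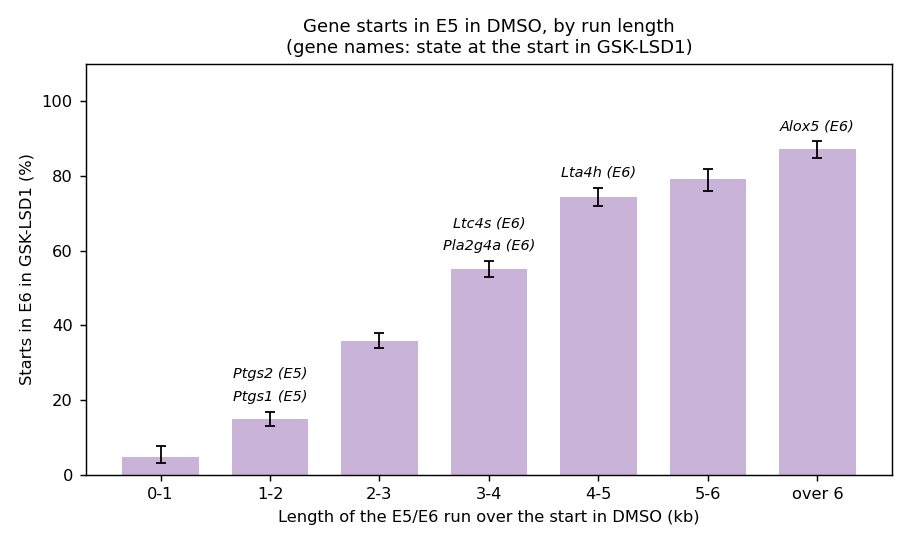
Share (%) of gene starts in E6 in GSK-LSD1 among starts that were E5 in DMSO, grouped by the length (kb) of the E5/E6 run over the start in DMSO, with 95% Wilson intervals as error bars. The share is 14.8% for runs over 1 and up to 2 kb, where Ptgs1 and Ptgs2 fall, and 87.2% for runs over 6 kb, where Alox5 falls.

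The 250 bases before the start are shown for a pair of genes with E6 there in GSK-LSD1 (Pla2g4a and Alox5) and for both genes with E5 there (Ptgs1 and Ptgs2), from RefSeq on build GRCm38.p6, each read 5′ to 3′ on the gene's strand. Capitals mark matches to 3 motifs searched on both strands, the TATA box TATAAA, the GC box GGGCGG and the C/EBP-type pattern TTNNGNAA.
Pla2g4a, chr1:149961291-149961540, minus strand: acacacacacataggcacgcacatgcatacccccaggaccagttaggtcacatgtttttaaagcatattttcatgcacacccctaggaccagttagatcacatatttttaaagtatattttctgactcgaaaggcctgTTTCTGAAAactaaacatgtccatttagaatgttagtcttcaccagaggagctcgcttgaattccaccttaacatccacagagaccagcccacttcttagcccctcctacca
Alox5, chr6:116461179-116461428, minus strand: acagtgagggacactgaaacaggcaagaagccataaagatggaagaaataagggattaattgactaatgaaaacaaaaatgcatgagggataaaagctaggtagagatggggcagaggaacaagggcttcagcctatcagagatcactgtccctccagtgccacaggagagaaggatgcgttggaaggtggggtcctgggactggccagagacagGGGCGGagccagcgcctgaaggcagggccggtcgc
Ptgs1, chr2:36230176-36230425, plus strand: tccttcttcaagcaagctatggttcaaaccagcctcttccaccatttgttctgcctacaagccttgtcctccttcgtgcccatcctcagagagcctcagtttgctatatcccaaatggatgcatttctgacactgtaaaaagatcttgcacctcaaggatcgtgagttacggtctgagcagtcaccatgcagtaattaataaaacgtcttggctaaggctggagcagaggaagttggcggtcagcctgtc
Ptgs2, chr1:150099781-150100030, plus strand: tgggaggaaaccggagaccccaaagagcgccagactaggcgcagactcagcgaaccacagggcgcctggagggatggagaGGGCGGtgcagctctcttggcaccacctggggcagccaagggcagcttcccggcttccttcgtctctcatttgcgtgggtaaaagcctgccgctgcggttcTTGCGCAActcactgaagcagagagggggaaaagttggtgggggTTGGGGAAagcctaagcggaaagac

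No TATAAA was found in these windows or in those of Lta4h and Ltc4s, and 12.5% of all 17274 such windows hold it. GGGCGG was found once at Alox5, starting 35 bases before the start, and once at Ptgs2, against 43.2% of all windows. TTNNGNAA was found as 2 separate matches at Ptgs2, one of them TTGCGCAA, and as 2 overlapping matches at Pla2g4a, against 34.6% of all windows. The ETS core GGAA was found in all 6 windows and in 93.1% of all. The number of CG dinucleotides was 3 at Pla2g4a, 5 at Alox5, 11 at Lta4h, 3 at Ltc4s, 5 at Ptgs1 and 13 at Ptgs2. Among these 6 genes the number overlapped between states, from 3 to 11 where the start was E6 in GSK-LSD1 and 5 and 13 where it was E5. Among all starts that were E5 in DMSO the median was 18 where the start was E6 in GSK-LSD1 and 16 where it was E5. Whether the number goes with the state was not tested. A match describes the letters of the window and not a bound site.

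Bin by bin, E6 in GSK-LSD1 covered 34.4 of the 42.4 kb that was E5 in DMSO in the 8 windows, or 81.1% (95% Wilson interval 75.3 to 85.8), and 51.3% of such bins over the genome. The share was 100% at Alox5 and Alox5ap, 90.2% at Ltc4s, 88.4% at Pla2g4a, 79.2% at Alox15 and 54.5% at Lta4h, and 0 kb at Ptgs1 and Ptgs2. E1 in GSK-LSD1 covered 31.2% of the DMSO E2 area (29.2 to 33.3), against 17.0% over the genome. Here the spread was wide, with 100% (13.6 kb) at Alox5ap, 66.3% at Alox5, 42.2% at Pla2g4a and 4.63% at Ptgs2, and none of the 19.6 kb at Ptgs1. E4 kept the smallest share of its area: 9.91% of its DMSO area was E4 in GSK-LSD1, 41.5% was E6, 30.0% was E1 and 13.6% was E5. Over the genome E4 also kept the smallest share, 26.8%, while 19.9% was E6, 21.6% was E1 and 18.9% was E5. Little went out of start-type chromatin, since a single bin, 0.2 kb at Ptgs1, was E5 in DMSO and E4 in GSK-LSD1. This was 0.472% of the DMSO E5 area of the windows. Little went out over the genome either, where 2.89% of the DMSO E5 area was E4 in GSK-LSD1 and 1.10% was E1. These shares describe the 2 segmentations, and the windows of 8 genes are not a sample of the genome.

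By the 12 shares of the 6 states in both treatments, the windows of Lta4h and Ptgs2 were the most alike pair of the 8 genes, at a Euclidean distance of 19.4 percentage points. Alox15 and Ptgs1 were the least alike, at 103.6. Over all protein-coding genes outside its own window, Pla2g4a was nearest to Notch2 (5.71 points), Alox5 to Mpp6 (12.1), Alox5ap to Cxcl2 (16.6) and Lta4h to Cct2 (8.30). Ltc4s was nearest to Prr12 (6.32), Alox15 to Mfsd4b4 (5.12), Ptgs1 to Nostrin (5.39) and Ptgs2 to Ephx4 (5.54). The median distance to all genes was 66.0 to 84.0 points. Cxcl2 had E6 over 29.4% of its window in GSK-LSD1 and 1.42% in DMSO, beside 25.3% and 1.90% for Alox5ap.

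A wider list of 52 genes of the pathway was chosen, like the 8 genes, with earlier results known. It covers other phospholipases and lipoxygenases, other leukotriene and prostaglandin steps and the receptors. Most of the list had more start-type chromatin in GSK-LSD1, as most genes did. Start-type area was larger in GSK-LSD1 at 37 of 52, or 71.2% of the list beside 66.8% of all genes. It was smaller at 6, or 11.5% beside 4.43% of all genes, each by 1.0 kb or less. It was equal at 9, all of which had none in either treatment. It was at least 2 kb larger at 26, or 50% of the list beside 44.9% of all genes, and at least 2 kb smaller at 0 (0.116% of all genes). The median difference was 1.9 kb, beside 1.4 kb over all genes. E1 was at least 2 kb larger at 26 of 52, or 50% of the list beside 41.4% of all genes. By group, E1 was larger at 6 of 7 prostaglandin and thromboxane synthases, 6 of 10 leukotriene steps, 6 of 11 phospholipases and 1 of 5 lipoxygenases. It was larger at 2 of 5 genes of prostaglandin removal, 4 of 5 leukotriene receptors and 6 of 9 prostanoid receptors, beside 49.1% of all genes. The group counts of start-type area that follow stand beside the same 66.8% of all genes with a larger area and 44.9% with at least 2 kb more. No group was tested against these shares. The leukotriene steps had the most members with larger start-type area (9 of 10, 7 by at least 2 kb, median 5.0 kb). All 10 had start-type chromatin in DMSO. Of all genes with it in DMSO, 91.4% had more in GSK-LSD1 and 62.7% at least 2 kb more, so both counts were close to that background. The median difference over those genes was 2.8 kb. Phospholipases had 5 of 11 (median 0 kb). The prostaglandin and thromboxane synthases had 6 of 7 (median 1.4 kb), prostaglandin removal 4 of 5 (2.6 kb), the lipoxygenases 4 of 5 (2.6 kb), the leukotriene receptors 4 of 5 (1.2 kb) and the prostanoid receptors 5 of 9 (0.8 kb).

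The 4 largest increases of this list were at Ggt1, Pla2g15, Cotl1 and Mgst2. Ggt1, a glutamyl transferase that acts on leukotriene C4, had 19.8 kb in GSK-LSD1 and 7.6 kb in DMSO, and its start was E6 in GSK-LSD1 and E4 in DMSO. Pla2g15, a lysosomal phospholipase, had 23.4 and 11.8 kb. Cotl1, whose product binds 5-lipoxygenase, had 16.8 and 6.4 kb. Mgst2, a microsomal glutathione transferase that can form leukotriene C4, had 20.4 and 10.2 kb, with 39.4 kb of E1 in GSK-LSD1 and 4.6 kb in DMSO. Some genes of the list, among them Cotl1, Abcc1 and Ltb4r2, had no start record, so their starts could not be read. Starts with E5 or E6 in GSK-LSD1 alone were found also at Ltb4r1, the receptor of leukotriene B4, at Ptgir, the prostacyclin receptor, and at Alox8, another lipoxygenase gene. Their window areas were 18.0 kb in GSK-LSD1 and 10.6 kb in DMSO for Ltb4r1, 13.8 and 6.8 kb for Ptgir, and 3.8 and 1.2 kb for Alox8. Of the list genes with a start record, only Hpgds, the haematopoietic prostaglandin D synthase gene, had a start-type start in DMSO alone. Its window held 0 kb in GSK-LSD1 and 0.4 kb in DMSO. Over all 17274 starts, 2.84% had E5 or E6 in GSK-LSD1 alone and 0.868% in DMSO alone. Whether the list differs from these shares was not tested. The largest of the 6 decreases was at Cyp4f18, a cytochrome of leukotriene B4 breakdown, with 0 kb in GSK-LSD1 and 1.0 kb in DMSO. Pla2g4b had 1.8 kb in GSK-LSD1 and 2.2 kb in DMSO, Pla2g4c had 0 and 0.4 kb, the prostaglandin D receptor gene Ptgdr2 had 6.4 and 6.8 kb, and the prostanoid receptor gene Ptger2 had 2.4 and 2.6 kb. Ptgdr2 and Ptger2 are outside the rule for named genes and were added after their values were seen.

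**Figure D4:**
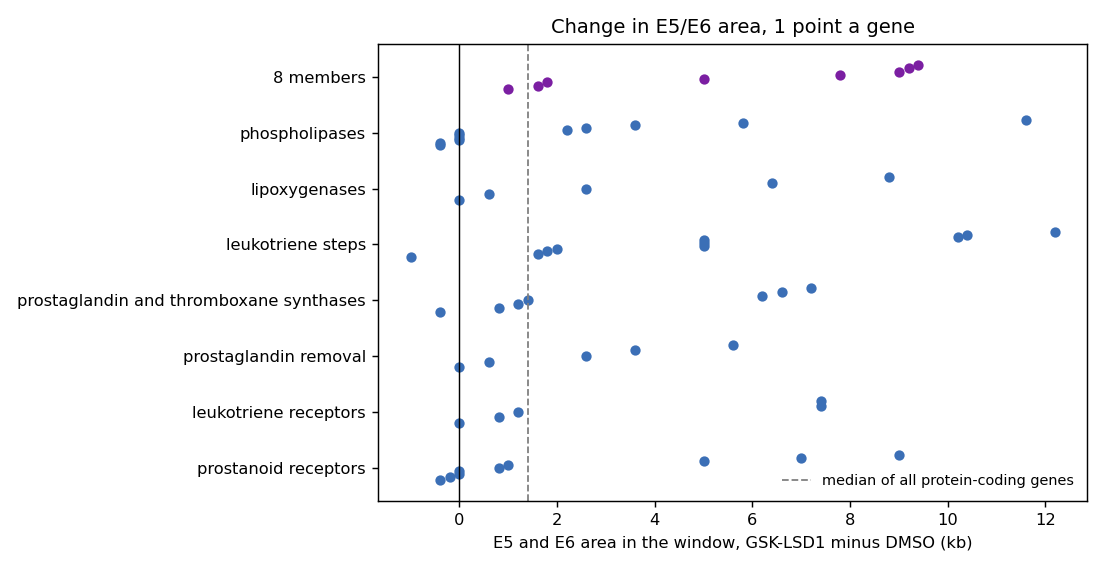
Difference in E5 and E6 area in the gene window, GSK-LSD1 minus DMSO (kb), with 1 point a gene for the 8 genes and for 7 groups of the wider pathway list; the dashed line is the median of all protein-coding genes, 1.4 kb. The 8 genes lie between 1.0 and 9.4 kb, and no gene of the wider list lies below -1.0 kb.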

How the data were processed

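Immunoprecipitated DNA for 3 histone marks and 1 input library were sequenced, and the authors deposited 1 segmentation of state labels per treatment, per the labels. Per the submitters' processing notes, reads were handled with Bowtie on mm10 (GRCm38). How the states were made (tool, thresholds, joint or separate modelling, use of the input) is not stated. A state is a categorical call, and library depth and precipitation quality could move it. The segmentations hold 162731 segments in GSK-LSD1 and 136061 in DMSO, on a 200 bp grid.

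Bins were counted with Python 3.11.15 and numpy 2.4.6 in windows of the gene span and 20 kb on either side, with genes, starts and strands from RefSeq tables of GRCm38. A start was the first promoter record of a gene, and Alox5ap and Alox15 had none. A change was a difference of at least 2 kb. Wilson intervals used scipy 1.17.1. Tested on simulated data with gains planted at 200 genes, the window areas were exact for all 21631 genes. The genes, lists, tests and the rule for named genes were chosen with earlier results of these data known. That rule took all 8 genes, the 4 largest increases and 4 largest decreases of the pathway list with every gained or lost start, the protein-coding genes in the windows, and the most similar gene to each; the background of genes marked in DMSO and the grouping by run length were added after the data had been seen.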

Additional observations from a re-analysis of the deposited data

How the results depend on the processing

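No paired analysis was possible because each treatment has 1 segmentation. Of the counts and totals recomputed under alternatives, 47 stayed within their limits, 20 moved and 1 reversed. These limits were wide. A fall from 7 to 5 genes with at least 2 kb more E1, with 10 kb flanks, was within them. So was a fall from 8 to 6 genes with more start-type chromatin when E4 was counted too. Of the values for single genes, 104 stayed, 32 moved and 8 reversed. Counting E5 alone reversed the start-type result: 3 genes had more, 1 by at least 2 kb, the summed share changed by -3.59 points in place of 6.82, and the differences were -7.2 kb at Pla2g4a, -5.8 kb at Alox5, -7.0 kb at Alox5ap, -5.8 kb at Ltc4s and -2.6 kb at Alox15. In the wider list 16 of 52 genes then had more, beside 28.6% of all genes, and 8 had at least 2 kb more. Of the 6 starts, 4 had E5 in DMSO alone. These follow from counting a move between E5 and E6 as a loss. With E4 counted too, the summed change was 1.73 points, and Pla2g4a (-7.2 kb) and Alox5 (-6.0 kb) reversed, because E4 area was smaller in GSK-LSD1. E6 alone gave 10.4 points. Flanks of 50 kb gave 5.24 points and 40 genes of the wider list at 2 kb. The gene body alone gave 8.54 points and 3 genes, and a limit of 1 kb gave 8 genes. No share of all genes is given for other flanks, the gene body or other limits. These counts therefore have no background, and the 44.9% for flanks of 20 kb is not theirs.

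For E1 the change of 21.2 points was 24.5 with 10 kb flanks, 29.1 in the gene body alone, 16.0 around both gene ends, 22.8 without bins near other genes, 19.7 with GSK-LSD1 runs cut by 1 bin at each edge and 31.6 with E6 added. With 10 kb flanks 5 genes in place of 7 reached 2 kb, with Lta4h at 0.8 kb, Ltc4s at 1.8 kb and Alox5ap at 6.8 kb in place of 13.8 kb. A limit of 4 kb left 6. In the gene body alone 4 genes had more E1, all 4 by at least 2 kb, and Alox5ap reversed (-2.0 kb), since its E1 in GSK-LSD1 lay outside the gene. For E1 too, no share of all genes is given for other flanks, the gene body or other limits. Windows hold neighbouring genes, and depth is unknown.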

Other observations

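The windows also held chromatin of neighbouring genes. Marchf8 reached within 0.531 kb of Alox5, Mgat4b within 1.36 kb of Ltc4s, Pelp1 within 2.34 kb of Alox15, Hal within 3.87 kb of Lta4h and Maml1 within 17.1 kb of Ltc4s. No protein-coding gene other than the member lay in the windows of Pla2g4a, Alox5ap, Ptgs1 or Ptgs2. In the windows of Pla2g4a, Alox5, Alox5ap and Ptgs1, background E3 was smaller in GSK-LSD1, with 15.0 kb in GSK-LSD1 against 41.6 kb in DMSO at Pla2g4a, 12.6 against 15.0 kb at Alox5, 7.2 against 31.2 kb at Alox5ap and 37.4 against 57.6 kb at Ptgs1. It was larger at Lta4h, with 14.0 kb in GSK-LSD1 against 0 kb in DMSO, and at Ptgs2, with 17.4 kb against 0 kb. Both directions thus occurred among genes that all had more start-type chromatin.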
